A study of Mus musculus with 10 samples.

Results

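The genes described are the 5 subunits of the muscle acetylcholine receptor (*Chrna1*, *Chrnb1*, *Chrnd*, *Chrng* and *Chrne*) and 5 genes of the agrin-MuSK pathway that gathers the receptor at the synapse (*Agrn*, *Lrp4*, *Musk*, *Dok7* and *Rapsn*). They were chosen by name from the 55359 genes of the authors' table, in which each of the 10 names occurred once. The muscle receptor is a pentamer of alpha, beta and delta subunits with either the gamma subunit, which fetal and denervated muscle use, or the epsilon subunit, which replaces gamma at mature, innervated synapses. Agrin released by the nerve binds LRP4, which activates the receptor tyrosine kinase MuSK. DOK7 binds MuSK from within the cell and holds it active, and rapsyn ties the receptors together beneath the membrane.

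The cells were C2C12, a mouse myoblast line whose cells fuse into myotubes when serum is lowered, and no nerve is present in such cultures. They were transfected with an siRNA against *Fndc1*, which encodes a secreted protein with fibronectin type III domains (si-*Fndc1*, 5 libraries), or with a control siRNA (si-Control, 5 libraries). Both groups were differentiated in 2% horse serum, and the labels and the paper place the harvest at day 4, while the text describing the series speaks of 48 h after transfection with 100 nM siRNA. The comparison asks how the transcripts of the receptor and of its clustering pathway differed between knockdown and control cells.

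Reads counted on genes ran from 66771605 to 75995168 per library in si-Control and from 56332844 to 72839369 in si-*Fndc1*, with si-*Fndc1* replicate 5 the shallowest. Levels are given as FPKM (fragments divided by transcript length and by library size), which the authors deposited and which is the scale on which different genes can be set side by side. Changes are log2 fold changes of si-*Fndc1* over si-Control from edgeR's quasi-likelihood test on the counts, with the standard error (SE) and a p-value adjusted by Benjamini-Hochberg over the 13548 tested genes, those whose FPKM averaged 0.5 or more over the 10 libraries. A gene is called changed at an adjusted p under 0.05. The study states in general that its experiments were repeated independently, but the labels do not say whether the 5 libraries of a group came from separate cultures, so the p-values measure the spread between these libraries, which may be technical. In bulk RNA, fewer cells of a kind and less RNA per cell cannot be told apart.

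*Fndc1* itself, the check of the labels, lay between 24.7 and 29.6 FPKM in si-Control and between 18.7 and 23.5 FPKM in si-*Fndc1*, without overlap (log2 fold change -0.40, SE 0.07, adjusted p = 0.000934, and -0.22, SE 0.05, adjusted p = 0.0104 with the offset for GC content and length described below). The ratio of the means was 0.752, so most of the *Fndc1* transcript was still present in si-*Fndc1*. Over all tested genes, 34.4% were called, 17.3% higher and 17.2% lower in si-*Fndc1*, and the median log2 fold change was 0.004. Log2 fold changes were lower in genes of higher GC content (Spearman -0.523 across the 11185 tested genes with a known GC content, which are not independent replicates). For this reason each tested member is also given with an offset for the trend of each library's counts with GC content and transcript length. Transcripts typical of hepatocytes also differed. Of 15 markers, 13 were tested and all 13 were called higher, among them *Hp*, haptoglobin (log2 fold change 6.51), and *Apoa2*, an apolipoprotein (6.41). Most of the 13 averaged under 0.5 FPKM in si-Control and passed the filter only through si-*Fndc1*, so the filter partly fixed this count. With no filter on low values all 15 were called higher. None of the 15 was at 0 in both groups. Their summed level was 0.195 to 6.62 FPKM in si-Control and 53.7 to 187 FPKM in si-*Fndc1*, at most 0.0574% of all FPKM of a library. Their part in the results below was not tested. The si-*Fndc1* library with the lowest sum, replicate 5, still held 53.7 FPKM of these markers, against at most 6.62 FPKM in si-Control. *Chrng* was at 82.9 FPKM in it, below every si-Control library, as in each other si-*Fndc1* library.

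The muscle identity of the cells was apparent in all libraries. The 8 skeletal muscle markers summed to 3772 to 4214 FPKM in si-Control and 3521 to 4160 FPKM in si-*Fndc1*. *Acta1*, the skeletal muscle actin, averaged 1898 ± 90.8 FPKM over the 5 si-Control libraries and 1978 ± 172 FPKM over the 5 si-*Fndc1* libraries (± SD). Of the 8, 2 were called higher and none lower, *Ckm*, the muscle creatine kinase (log2 fold change 0.39, adjusted p = 0.000201), and *Myod1*, a myogenic E-box factor (0.16, adjusted p = 0.0162). With the GC content and length offset 3 of the 8 were called higher and 1 lower. With limma on quantile-normalized log2(FPKM + 1) 1 was called higher and 4 lower, with a median log2 difference of -0.19 against 0.01, and *Myod1* was not called (adjusted p = 0.124) while *Myh3*, an embryonic myosin, was called lower (-0.36, adjusted p = 0.0189). Motor neuron markers summed to at most 0.266 FPKM in any library, and *Chat*, *Slc18a3*, *Snap25* and *Mnx1* had no count. The Schwann cell markers *Sox10* and *S100b* averaged at most 0.0262 FPKM in either group, and *Erbb3*, which Schwann cells also use, is expressed in muscle. The leukocyte and endothelial markers summed to at most 1.19 FPKM.

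The start regions of the receptor subunit genes are shown first, because *Chrna1* and *Chrng* moved in opposite directions and *Chrne* is the subunit that replaces *Chrng*. RefSeq windows on GRCm38.p6 were found for 7 of the 10 genes, and for *Chrnd*, *Rapsn* and *Lrp4* none was given. The 250 bases before the RefSeq start lie at chr2:73580339-73580588 on the minus strand for *Chrna1*, at chr1:87205561-87205810 on the plus strand for *Chrng*, and at chr11:70619195-70619444 on the minus strand for *Chrne*. Capitals mark each E-box (CANNTG, the letters that MyoD family factors bind, the same on both strands) and each N-box core (CCGGAA, or TTCCGG on the other strand, the letters that Ets factors such as GABP bind), and none of the marked stretches overlap.
Chrna1: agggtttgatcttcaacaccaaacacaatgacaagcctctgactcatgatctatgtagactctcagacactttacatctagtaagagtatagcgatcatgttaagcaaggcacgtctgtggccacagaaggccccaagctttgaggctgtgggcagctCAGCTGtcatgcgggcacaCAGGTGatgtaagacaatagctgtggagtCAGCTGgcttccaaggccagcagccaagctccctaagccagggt
Chrng: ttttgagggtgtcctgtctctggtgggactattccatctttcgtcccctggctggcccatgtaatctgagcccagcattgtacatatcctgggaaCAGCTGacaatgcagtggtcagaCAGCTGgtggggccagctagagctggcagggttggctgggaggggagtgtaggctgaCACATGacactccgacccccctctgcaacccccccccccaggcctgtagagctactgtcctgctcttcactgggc
Chrne: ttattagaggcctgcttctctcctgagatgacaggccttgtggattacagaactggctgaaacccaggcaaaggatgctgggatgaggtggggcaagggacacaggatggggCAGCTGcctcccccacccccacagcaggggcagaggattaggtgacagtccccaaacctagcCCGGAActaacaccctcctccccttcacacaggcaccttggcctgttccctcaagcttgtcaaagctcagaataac
*Chrna1* and *Chrng* both held 3 E-boxes, of which 2 read CAGCTG in each, and neither held an N-box core. Counting back from the start, with -1 the base before it, the first bases of the E-boxes lay at -92, -73 and -44 in *Chrna1* and at -155, -132 and -75 in *Chrng*. *Chrne* held 1 E-box at -138, also CAGCTG, and 1 N-box core at -76. Among 32851 RefSeq windows of the same length, 66.2% held at least 1 CANNTG, 13.0% at least 1 CAGCTG and 12.0% at least 1 N-box core. The share of windows with 2 or 3 matches was not counted, so these percentages do not match the counts above. *Musk* and *Chrnb1* held 3 E-boxes each, while *Agrn* and *Dok7* each held 1 E-box in 1 window and none in another. These matches are letters in a window, and no binding was measured.

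Of the 10 genes, 9 passed the filter on low values and 8 were called, 1 higher and 7 lower in si-*Fndc1*, against 34.4% of all tested genes called. The median log2 fold change of the 9 was -0.29, against 0.004 over all tested genes. With the GC content and length offset 5 of the 9 were called, and 2537 of 11185 genes. The genes were chosen with earlier results of these data known, which limits this comparison. The FPKM values of the groups did not overlap in 7 of the 9 tested members, against 25.1% of all tested genes, and they overlapped in the untested *Chrne*.

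**Figure D1:**
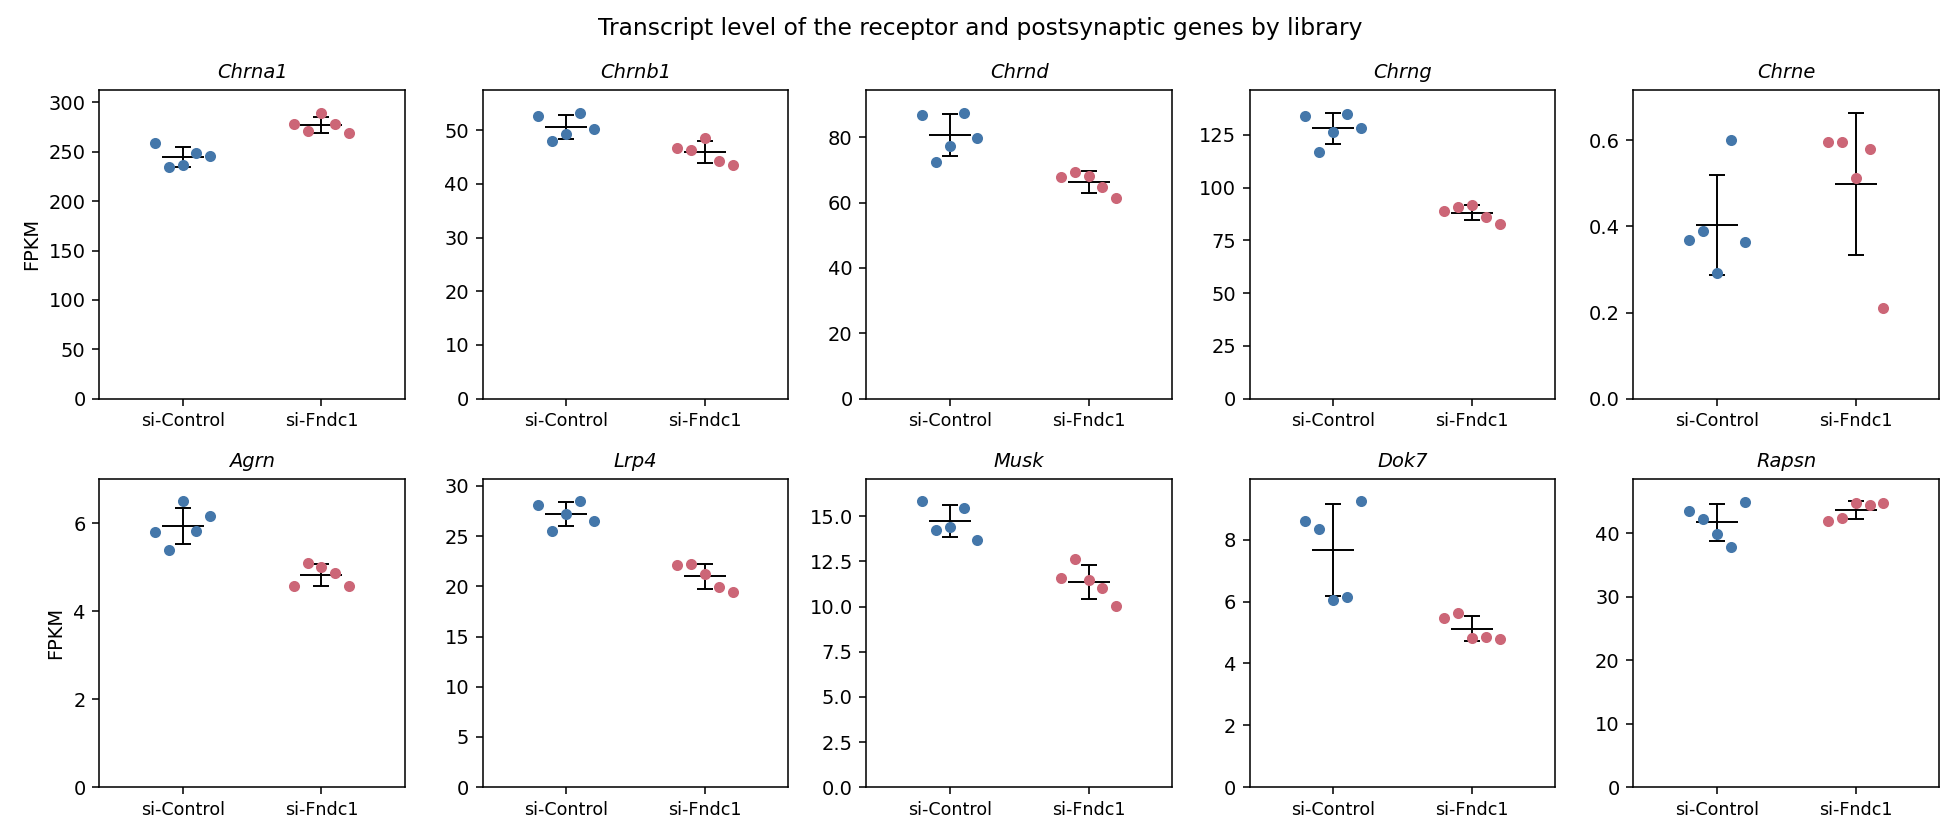
FPKM of each gene (vertical axes, each from 0) in the 5 si-Control and 5 si-Fndc1 libraries, 1 point per library in replicate order from left to right, with the group mean and SD as bars. Chrna1 lies higher in si-Fndc1, Chrng, Chrnd, Agrn, Lrp4, Musk and Dok7 lie lower without overlap, and the groups overlap for Chrnb1, Chrne and Rapsn.

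Among the receptor subunits, the alpha subunit gene rose while the gamma, delta and beta genes fell. *Chrng* (ENSMUSG00000026253, listed on chromosome 1 from 87132379 to 87136018, plus strand) encodes the fetal gamma subunit. It was at 134, 117, 126, 135 and 128 FPKM in si-Control replicates 1 to 5 and at 89.1, 90.9, 91.8, 86.2 and 82.9 FPKM in si-*Fndc1* replicates 1 to 5. Every si-*Fndc1* library lay well below the lowest si-Control library, and the ratio of the means was 0.689. The log2 fold change was -0.53 (SE 0.05, adjusted p = 2.93e-05), and it kept its call with the GC content and length offset, where it was -0.38 (SE 0.04, adjusted p = 0.000161).

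*Chrna1* (ENSMUSG00000027107, chromosome 2 from 73393559 to 73410682, minus strand) encodes the alpha subunit, which carries the main part of the acetylcholine binding sites. Its level was 259, 234, 237, 249 and 246 FPKM in si-Control and 278, 271, 289, 278 and 269 FPKM in si-*Fndc1*. The groups did not overlap, with the lowest knockdown library just above the highest control library. The rise was 0.19 on the log2 scale (SE 0.04, adjusted p = 0.00286). The call was lost with the GC content and length offset (log2 fold change 0.09, SE 0.03, adjusted p = 0.0784) and with limma on quantile-normalized log2(FPKM + 1) (0.02, adjusted p = 0.726), without a change of direction. The GC content of its transcripts, 46.3%, was the lowest of the 10 genes.

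*Chrnd* (ENSMUSG00000026251, chromosome 1 from 87118329 to 87127792, plus strand), the delta subunit gene, ends 4587 bases before *Chrng* begins on the same strand. It was at 86.9, 72.3, 77.2, 87.4 and 79.7 FPKM in si-Control and at 67.8, 69.4, 68.1, 64.8 and 61.3 FPKM in si-*Fndc1*. The highest knockdown library lay below the lowest control library, si-Control replicate 2, by less than the spread within si-Control. Its log2 fold change was -0.28 (SE 0.06, adjusted p = 0.00381). With the GC content and length offset it stayed called at a smaller size, close to the threshold (-0.19, SE 0.06, adjusted p = 0.0413).

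*Chrnb1* (ENSMUSG00000041189, chromosome 11 from 69674862 to 69686769, minus strand), the beta subunit gene, moved least of the called genes in the fit of the counts as deposited, but not with the GC content and length offset. Its level was 52.6, 47.9, 49.2, 53.2 and 50.2 FPKM in si-Control and 46.7, 46.4, 48.6, 44.2 and 43.5 FPKM in si-*Fndc1*. The groups overlapped, since si-*Fndc1* replicate 3 was above si-Control replicate 2. The log2 fold change of -0.13 (SE 0.04) only just passed the threshold (adjusted p = 0.03), and the call was lost in 5 of the 10 fits that left out 1 library (without si-Control replicate 1, 4 or 5, or si-*Fndc1* replicate 4 or 5, adjusted p from 0.0518 to 0.0711). With no filter on low values it was also lost (adjusted p = 0.0682), whereas the GC content and length offset left it called (-0.20, SE 0.05, adjusted p = 0.0122).

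*Chrne* (ENSMUSG00000014609, chromosome 11 from 70505709 to 70510042, minus strand), the adult epsilon subunit gene, was near the detection limit in both groups. It had 55, 53, 40, 84 and 47 reads in si-Control, or 0.368, 0.390, 0.292, 0.601 and 0.364 FPKM. In si-*Fndc1* it had 80, 83, 70, 80 and 23 reads, or 0.595, 0.595, 0.512, 0.579 and 0.210 FPKM. Most knockdown libraries were higher than most control libraries, but si-*Fndc1* replicate 5 was the lowest of all and si-Control replicate 4 the highest, so the groups overlapped. The exact Poisson 95% interval of the lowest count, 23 reads, runs from 14.6 to 34.5, and covers counting error only. *Chrne* was under the filter on low values, and tested without the filter its log2 fold change was 0.31 (SE 0.30, adjusted p = 0.541), which is not distinguishable from no change at this depth. The gene 4930544D05Rik overlaps *Chrne* on the other strand at a mean of 0.0142 FPKM, and the use of strand in counting is not stated.

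The order of the subunit levels was the same in both groups, *Chrna1*, *Chrng*, *Chrnd*, *Chrnb1* and *Chrne* from high to low, and no neighbours in that order overlapped within a group. The summed level of the 5 subunits averaged 505 ± 25.3 FPKM over the si-Control libraries and 478 ± 14.9 FPKM over the si-*Fndc1* libraries (± SD, n = 5 each), a difference that a two-sided exact permutation test did not separate from the spread (p = 0.0873). Within that sum the make-up differed. *Chrna1* took 48.6% ± 0.80 (SD, n = 5) of the summed FPKM in si-Control and 58.0% ± 0.87 (SD, n = 5) in si-*Fndc1*. *Chrng* took 25.4% ± 0.41 in si-Control and 18.4% ± 0.34 in si-*Fndc1*, so the alpha share was higher and the gamma share lower in knockdown cells. The shares come from FPKM without the GC content and length offset and were not recomputed with it. In the edgeR fit with that offset the log2 fold change of *Chrna1* was 0.09 (adjusted p = 0.0784, not called). That of *Chrng* was -0.38.

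The delta share was 16.0% ± 0.51 in si-Control and 13.9% ± 0.42 in si-*Fndc1*. The beta share was 10.0% ± 0.12 and 9.59% ± 0.17, closest to equal of the 4 abundant subunits. For each of these 4 the shares of the groups did not overlap in any library (two-sided exact permutation tests, p = 0.00794 for each, the smallest that 5 against 5 allow, and 0.00992 after Benjamini-Hochberg adjustment over the 5 subunits). Shares sum to 100%, so these 4 tests are not independent of each other. The epsilon share was 0.0796% ± 0.0211 in si-Control and 0.104% ± 0.0335 in si-*Fndc1*, which did not differ beyond the spread (exact permutation test, adjusted p = 0.198). Without si-*Fndc1* replicate 5, the library with the lowest *Chrne* level, it did (adjusted p = 0.0238). Leaving out any other single library, it did not (exact permutation tests, adjusted p from 0.119 to 0.333).

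The fetal to adult ratio, *Chrng* FPKM over *Chrne* FPKM, was 364, 300, 432, 224 and 352 in si-Control replicates 1 to 5. It was 150, 153, 179, 149 and 395 in si-*Fndc1* replicates 1 to 5. In 4 of the 5 knockdown libraries the ratio was below every control library, and in si-*Fndc1* replicate 5, the library with 23 *Chrne* reads, it was above all but 1 of them. Over the libraries of both groups the gamma transcript was 149 to 432 times as abundant as the epsilon transcript. On the log2 scale the ratio was 8.35 ± 0.356 (SD, n = 5) in si-Control and 7.56 ± 0.605 (SD, n = 5) in si-*Fndc1*, and the groups differed by -0.79 (exact permutation test, two-sided, p = 0.0476). The call depended on single libraries and was lost in 8 of the 10 tests that left out 1 library, namely all but those without si-Control replicate 4 (difference -0.92, exact p = 0.0397) and without si-*Fndc1* replicate 5 (difference -1.06, exact p = 0.0159). Of the genes in the ratio, *Chrng* alone was called, and *Chrne* was not called in the fit that included it.

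**Figure D2:**
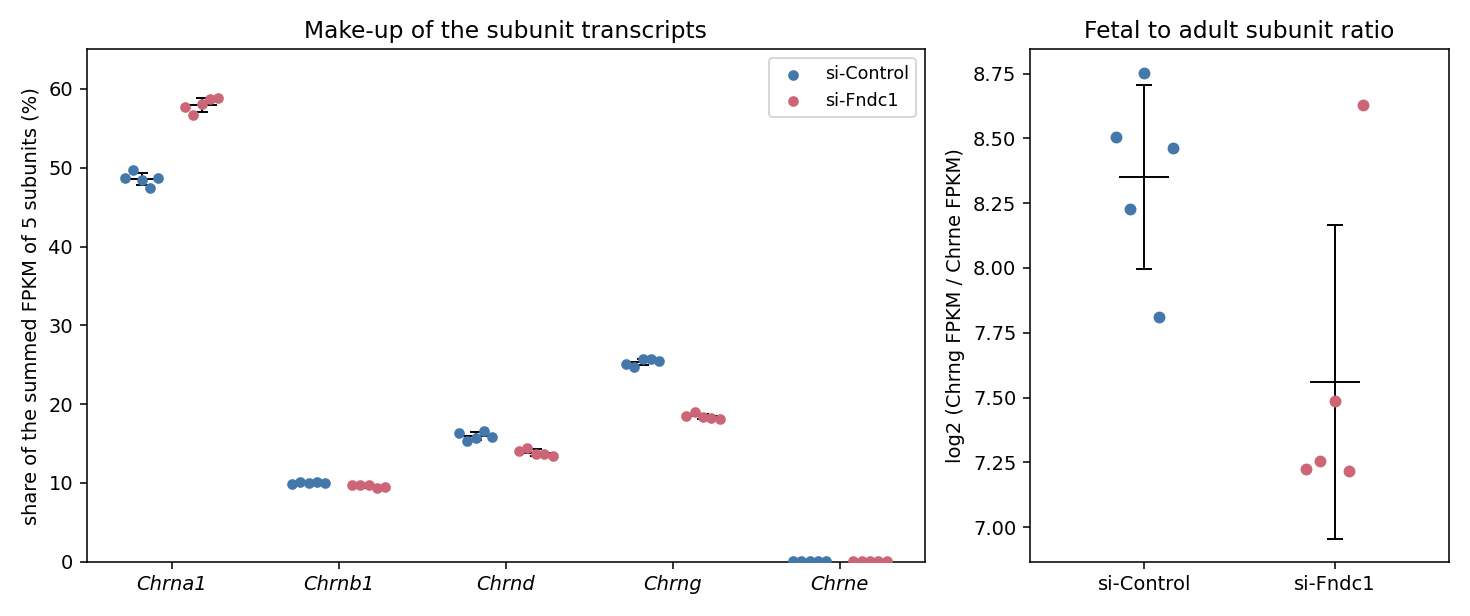
Left, share of the summed FPKM of the 5 subunits taken by each (%, from 0), 1 point per library with group mean and SD. Right, log2 of the Chrng to Chrne FPKM ratio per library (axis not from 0), with mean and SD. Chrna1 takes 48.6% in si-Control and 58.0% in si-Fndc1, Chrng 25.4% and 18.4%, and 1 si-Fndc1 library stands at 8.63 on the log2 ratio, apart from the other 4.

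In the agrin-MuSK pathway, the ligand, both receptor components and the adaptor were called lower and rapsyn was not called. *Agrn* (ENSMUSG00000041936, chromosome 4 from 156249747 to 156281945, minus strand) encodes agrin. Muscle cells also make agrin, and the isoform with strong clustering activity is the one neurons splice, which gene-level counts cannot tell apart. *Agrn* was at 5.81, 5.39, 6.49, 5.82 and 6.17 FPKM in si-Control and at 4.56, 5.09, 5.01, 4.87 and 4.58 FPKM in si-*Fndc1*. The groups did not overlap (log2 fold change -0.29, SE 0.06, adjusted p = 0.00251). With the GC content and length offset almost nothing of the difference was left (-0.02, SE 0.05, adjusted p = 0.844).

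*Lrp4* (ENSMUSG00000027253, chromosome 2 from 91287856 to 91344124, plus strand), the agrin receptor, was at 28.1, 25.5, 27.2, 28.5 and 26.5 FPKM in si-Control. In si-*Fndc1* it was at 22.1, 22.3, 21.2, 20.0 and 19.5 FPKM, all below the control libraries. This was a log2 fold change of -0.36 (SE 0.05, adjusted p = 0.000229). It kept its call with the GC content and length offset at a smaller size (-0.14, SE 0.03, adjusted p = 0.00896).

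*Musk* (ENSMUSG00000057280, chromosome 4 from 58285962 to 58374303, plus strand) encodes the kinase at the centre of the pathway. Its level was 15.8, 14.2, 14.4, 15.5 and 13.7 FPKM in si-Control and 11.6, 12.6, 11.5, 11.0 and 10.0 FPKM in si-*Fndc1*, with no overlap. The log2 fold change was -0.37 (SE 0.06, adjusted p = 0.00136). *Musk* was the member that the GC content and length offset moved least (-0.37, SE 0.07, adjusted p = 0.00238).

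*Dok7* (ENSMUSG00000044716, chromosome 5 from 35214110 to 35245183, plus strand), the intracellular activator of MuSK, had the largest fitted change of the 9 in the fit of all libraries, though *Chrng* changed more with the GC content and length offset, with limma and without si-Control replicate 2 or 5. It was at 8.60, 8.35, 6.04, 6.15 and 9.24 FPKM in si-Control and at 5.47, 5.65, 4.82, 4.84 and 4.80 FPKM in si-*Fndc1*. The control libraries split, with replicates 3 and 4 well under the other 3 and only slightly above the knockdown libraries. Over all libraries *Dok7* had a log2 fold change of -0.58 (SE 0.12, adjusted p = 0.00468). Without si-Control replicates 3 and 4, a fit added after these values were seen, it was -0.77 (SE 0.07, adjusted p = 0.000608). Those were the control libraries nearest to the knockdown. A larger change with a smaller SE therefore follows from leaving them out, and this adjusted p adds no support. With the GC content and length offset, over all libraries, the log2 fold change was -0.33 (SE 0.12, adjusted p = 0.0853) and *Dok7* was no longer called. *Dok7* had the highest GC content of the 10 genes, 60.4%.

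*Rapsn* (ENSMUSG00000002104, chromosome 2 from 90865965 to 90876074, plus strand), the scaffold protein rapsyn, was not called. It was at 43.5, 42.3, 39.9, 37.8 and 45.0 FPKM in si-Control and at 42.0, 42.4, 44.8, 44.4 and 44.7 FPKM in si-*Fndc1*. The knockdown libraries lay inside the range of the control libraries, of which replicates 3 and 4 were again the lowest. The log2 fold change was 0.07 (SE 0.05, adjusted p = 0.28), and with the GC content and length offset it was 0.13 (SE 0.05, adjusted p = 0.0649). Its GC content, 58.5%, was next to that of *Dok7*. The gene Gm13778 overlaps its end on the other strand at a mean of 0.977 FPKM.

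By level, the pathway genes ran *Rapsn*, *Lrp4*, *Musk*, *Dok7* and *Agrn* from high to low in both groups, and *Dok7* and *Agrn* overlapped within each group. *Rapsn* stood just under *Chrnb1*, and in si-*Fndc1* these overlapped as well.

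**Figure D3:**
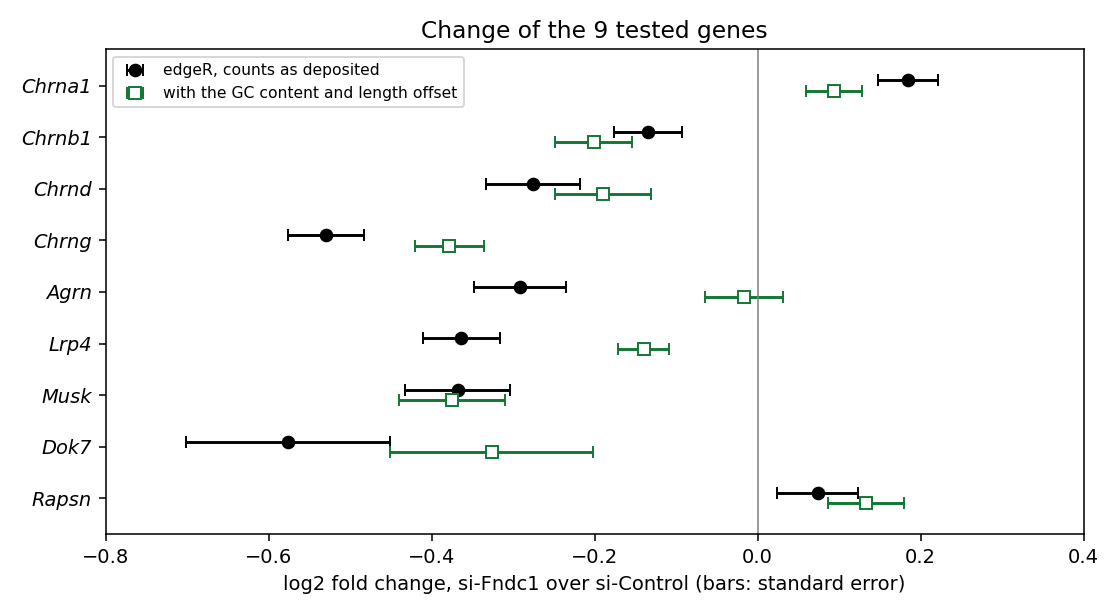
Log2 fold change of si-Fndc1 over si-Control with its standard error for the 9 tested genes, from the counts as deposited (filled) and with the offset for GC content and transcript length (open). Chrng and Musk stay well below 0 with both, Agrn goes from -0.29 to -0.02, and Chrna1 from 0.19 to 0.09.

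The genes whose profiles over the 10 libraries were most like those of the members were found by the root mean square difference of centred log2 CPM (counts scaled to library size), members left out. For *Chrna1* they were *Desi2*, *Tm9sf2* and *Uba6*, with differences of 0.0361, 0.0386 and 0.0408. For *Chrng* they were *Gcn1*, *Ptprs* and *Tnrc18*, with differences of 0.0457, 0.0503 and 0.0545, and log2 fold changes of -0.46, -0.57 and -0.53. Profiles were matched over both groups, so fold changes near that of *Chrng* follow from the match and are not a separate result. For *Dok7* the nearest profiles were farther off, a copy of the small noncoding RNA 7SK (ENSMUSG00002076161) at 0.150, *Tfeb* at 0.155 and *Zfp579* at 0.171. The table lists 330 genes named 7SK, among which the counting may have split reads, so its value is uncertain.

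The other nicotinic receptor subunits, which form neuronal receptors, were near 0. Of these 11 genes none passed the filter, 6 had no count in any library, and *Chrnb2* was the highest with a mean of 0.219 ± 0.0660 FPKM over the si-Control libraries and 0.222 ± 0.0427 FPKM over the si-*Fndc1* libraries (± SD, n = 5 each).

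Of 24 genes of MuSK signalling and receptor clustering, all tested, 3 were called higher and 8 lower, and 13 were not called (median log2 fold change -0.12). The shares to set beside the counts of this list and those that follow are 17.3% called higher and 17.2% lower among all tested genes. *Dvl2* and *Dvl3*, Dishevelled proteins that bind MuSK, fell by 0.48 each on the log2 scale (adjusted p = 0.000315 and 0.00011). *Cttn*, the actin regulator cortactin, fell by 0.23 (adjusted p = 0.000336). *Csnk2b*, the regulatory subunit of casein kinase 2, rose by 0.33 (adjusted p = 9.06e-05), at 30.4 ± 1.02 FPKM in si-Control and 37.9 ± 1.10 FPKM in si-*Fndc1* (SD, n = 5). These 4 kept their calls with the GC content and length offset, *Dvl3* and *Dvl2* at a smaller size (-0.18 and -0.26, adjusted p = 0.00773 and 0.0255), under which the list had 4 higher and 6 lower.

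In the neuregulin-ErbB-Ets branch, a further proposed route to synaptic transcription, 1 of 7 tested genes was called higher, 2 lower and 4 were not called (median log2 fold change -0.22). *Erbb2*, a neuregulin receptor, fell by 0.50 on the log2 scale (adjusted p = 0.000158), from 12.3 ± 0.678 to 8.64 ± 0.698 FPKM (SD, n = 5), and with the offset by 0.30 (adjusted p = 0.00233). *Etv5*, an Ets factor of subsynaptic nuclei, fell by 0.22 (adjusted p = 0.016), a call that was lost without si-Control replicates 3 and 4 (adjusted p = 0.0577). *Gabpa*, the Ets factor of the N-box, was called higher (0.14, adjusted p = 0.00336), with the sign turned and no call under the offset (-0.04, adjusted p = 0.287). *Erbb3*, the partner of *Erbb2*, was not called (-0.23, adjusted p = 0.0917). The count of lower genes depended on single libraries, with 4 lower without si-*Fndc1* replicate 2 and 3 without si-Control replicate 1.

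Of the synaptic basal lamina and subsynaptic scaffold genes, 7 of 15 tested were called lower, none higher, and 8 were not called (median log2 fold change -0.23). *Hspg2*, the heparan sulfate proteoglycan perlecan, fell by 0.58 on the log2 scale (adjusted p = 3.34e-05), from 174 ± 9.22 to 116 ± 7.76 FPKM (SD, n = 5), and by 0.15 with the offset (adjusted p = 0.000753). *Lama5* and *Lamb2*, laminin chains of the synaptic cleft, had log2 fold changes of -0.40 and -0.31 (adjusted p = 0.000183 and 0.0004), and both lost their calls with the offset (-0.04 and -0.06). *Nes*, the intermediate filament nestin, fell by 0.27 (adjusted p = 0.000351), and by 0.10 with the offset (adjusted p = 0.013). *Ache*, acetylcholinesterase, was under the filter at 0.178 ± 0.0456 FPKM in si-Control and 0.16 ± 0.10 FPKM in si-*Fndc1* (SD, n = 5), and *Colq*, its collagen anchor, was not called (0.05, adjusted p = 0.836). With the offset the list had 2 higher and 3 lower, and its median was -0.01.

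Among the genes of E-box and activity-dependent transcription, 2 of 14 tested were called higher (*Id2* and *Myod1*, which is also a skeletal muscle marker), 4 lower and 8 were not called (median log2 fold change -0.07). *Myog*, myogenin, an activator of the receptor subunit genes, was at 262, 266, 250, 252 and 238 FPKM in si-Control and at 228, 219, 238, 262 and 216 FPKM in si-*Fndc1*. These values overlapped through si-*Fndc1* replicate 4, and *Myog* was not called (-0.12, SE 0.06, adjusted p = 0.137). With the GC content and length offset it was called lower (-0.18, SE 0.05, adjusted p = 0.0217), as it was with limma (-0.26, adjusted p = 0.00254) and without si-*Fndc1* replicate 4 (-0.16, adjusted p = 0.0229). *Tcf3*, which encodes the E protein partners of the MyoD family, fell by 0.40 on the log2 scale (adjusted p = 7.83e-05), and by 0.14 with the offset (adjusted p = 0.0322). *Hdac4*, a deacetylase of the denervation response, lost its call with the offset (-0.35, adjusted p = 0.000373, and -0.002 with it), and *Id2*, an inhibitor of E proteins, went from a called 0.23 (adjusted p = 0.00596) to -0.05 (adjusted p = 0.59).

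In receptor assembly and glycosylation, 3 of 7 tested genes were called higher, none lower and 4 were not called (median log2 fold change 0.02). *Alg14*, *Alg2* and *Gfpt1*, enzymes of protein glycosylation in which mutations cause congenital myasthenia, rose by 0.38, 0.17 and 0.12 on the log2 scale (adjusted p = 0.000328, 0.0275 and 0.0429). Only *Alg14* kept its call with the offset (0.20, adjusted p = 0.0175), under which the list had 1 higher and 1 lower. Over the 20 alternative fits *Gfpt1* lost its call in 14 and *Alg2* in 9, and the count of higher genes went from 3 to 1 on leaving out si-Control replicate 2 or 5 or si-*Fndc1* replicate 1 or 4, and with no filter on low values. *Pomt1* was not called (-0.13, adjusted p = 0.16), and its sign turned with the offset (0.03).

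*Scn4a*, the sodium channel gene of adult muscle, was called lower. It was at 7.92, 6.05, 7.11, 8.11 and 6.73 FPKM in si-Control and at 5.69, 7.07, 4.95, 5.07 and 4.43 FPKM in si-*Fndc1* (log2 fold change -0.39, SE 0.12, adjusted p = 0.0309). The groups overlapped through si-*Fndc1* replicate 2, and the call was lost with the GC content and length offset (-0.23, SE 0.11, adjusted p = 0.159) and in 11 of the 20 alternative fits in all, among them those without si-Control replicate 1, 3 or 4 or si-*Fndc1* replicate 3, 4 or 5 (adjusted p from 0.0547 to 0.0722).

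**Figure D4:**
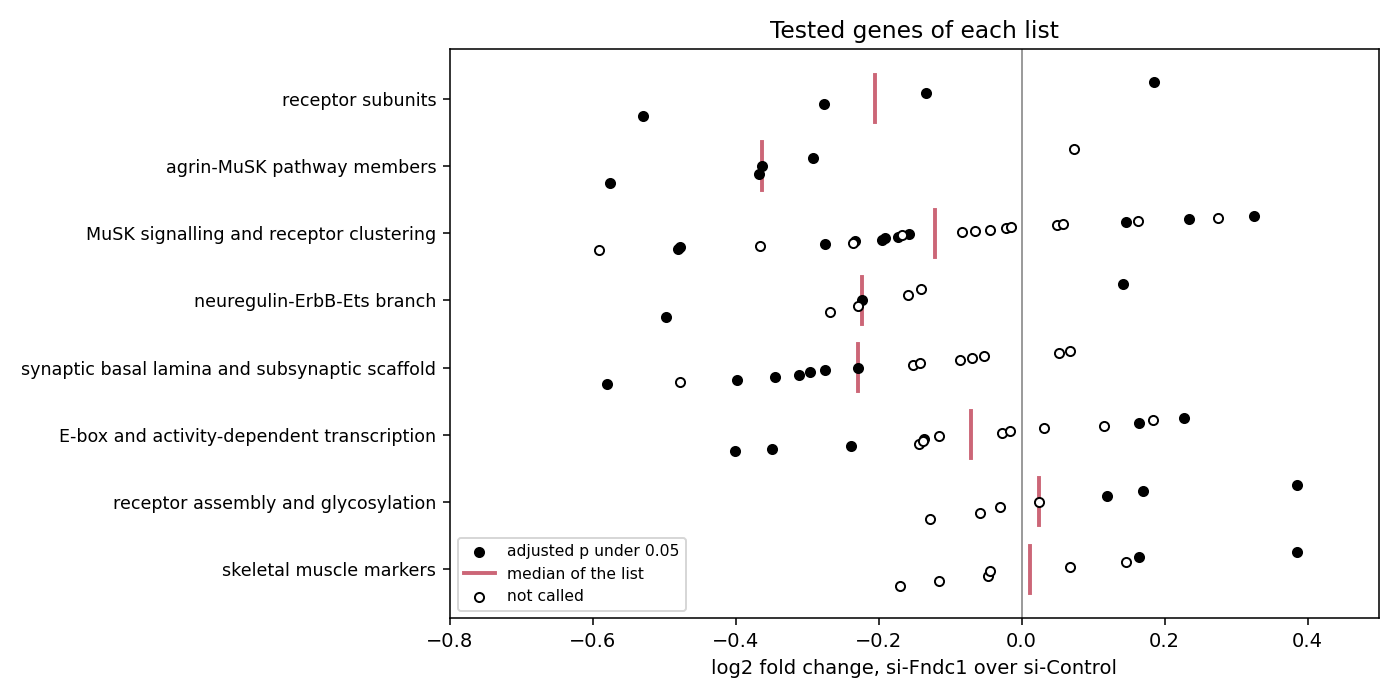
Log2 fold change of every tested gene in each list (horizontal axis), filled where the adjusted p was under 0.05, with the median of the list as a red line. The synaptic basal lamina and scaffold list has 7 called genes of 15 tested, all lower, and the receptor assembly list 3 of 7, all higher. Among all tested genes 17.2% were called lower and 17.3% higher. With the GC content and length offset, not drawn, the first list had 2 higher and 3 lower, and the second 1 higher and 1 lower.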

How the data were processed

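For C2C12 cells with si-Control or si-*Fndc1* (5 libraries each), the authors deposited one table of read counts per gene, not normalized, and FPKM values, scaled by transcript length and library size and listed as 0.0001 where the count is 0. The methods name TopHat, mm10 and htseq-count, the text describing the series names STAR and mm9, and the submitters' processing notes GRCm39, cutadapt 1.9 and FastQC. The table names no build, and its coordinates are printed as listed. Use of strand is not given in the sources used here. The methods name 4 libraries without saying which, and all 10 were used.

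Counts were tested with edgeR 4.0.16 (quasi-likelihood, TMM normalization, no replicate term, R 4.3.3) on genes averaging 0.5 FPKM or more over all libraries. The SE is the fold change divided by the square root of F. Single values were compared by two-sided exact permutation tests (Python 3.11.15, scipy 1.17.1). Alternatives were DESeq2 1.42.0, its size factors in edgeR, limma 3.58.1, other filters, a replicate term, an offset from spline trends with GC content (NCBIM37 transcripts, matched by gene identifier for 82.6% of tested genes) and length, and leaving out each library. The scripts were tested on simulated data. No read was counted for 26407 of the 55359 genes. In the 20 pairs of libraries within a group, chi-square over degrees of freedom was at least 41.5, so none was a near copy. The members and lists were chosen with earlier results of these data known. Besides the 10 members, named genes are up to 4 of each list with the smallest p-values, *Myog*, *Ache*, *Colq* and *Scn4a*, the 3 genes most like *Chrna1*, *Chrng* and the called member of largest change, and *Fndc1*. *Acta1*, *Chrnb2*, the markers at or near 0 and the overlapping genes were named after their values were seen. A few genes that this rule names are not reported here.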

Additional observations from a re-analysis of the deposited data

Results flagged for a closer look

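Among 34 groups of 5 libraries (the FPKM of the 10 genes and of *Fndc1*, the log2 *Chrng* to *Chrne* ratio and the 5 subunit shares), 3 had a library whose gap to its nearest neighbour was more than 0.71 of the group's whole range, and chance gives about 1 in 20 such groups. All 3 come from the same *Chrne* value. In si-*Fndc1* replicate 5, the shallowest library, *Chrne* was at 0.210 FPKM (23 reads), a gap of 0.785 of the range. The log2 *Chrng* to *Chrne* ratio of that library was 8.63, a gap of 0.810 of the range, and its *Chrne* share of the subunit FPKM was 0.0459%, a gap of 0.726 of the range. Without that library the ratio differed by -1.06 on the log2 scale (exact permutation test, p = 0.0159).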

How the results depend on the processing

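The directions of the 9 tested members held in all 20 alternative fits, and 164 of 180 values stayed on their side of the threshold. *Chrng*, *Lrp4* and *Musk* stayed called in every fit. With the GC content and length offset 5 members and 2537 of 11185 genes were called, against 4244 of the same genes without the offset, and with the replicate block added 4 members and 1645 genes, *Chrnd* then also losing its call (adjusted p = 0.0975). The same-numbered libraries of the groups did not deviate together (correlations from -0.055 to 0.064), so the numbers pair nothing, and only replicate 3 correlated best with its own number. With the replicate block alone 3572 genes were called and 7 members, *Chrnb1* losing its call (adjusted p = 0.0854). Leaving out 1 library gave 4000 to 4627 called genes and 7 or 8 members, and leaving out si-Control 3 and 4 together, chosen after seeing the data, 3205 genes and 7 members, *Chrnb1* again losing its call (adjusted p = 0.0971).

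The log2 *Chrng* to *Chrne* difference ran from -1.06 to -0.69 over the tests without 1 library, with exact p from 0.0159 to 0.0952. It was -0.84 without si-Control 3 and 4 (exact p = 0.143), and -0.62 and -0.75 with 1 and 0.1 FPKM added (exact p = 0.00794 and 0.0238). Paired by number as a replicate block, an exact sign-flip test, which cannot go below 0.0625 here, left the difference of -0.79 (p = 0.125) and the share differences of 9.42 (*Chrna1*), -0.44 (*Chrnb1*), -2.10 (*Chrnd*) and -6.91 (*Chrng*) percentage points (adjusted p = 0.0781 each) uncalled. The *Chrne* share difference ran from 0.019 to 0.0386 percentage points without 1 library.

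Of 632 values of 32 other named genes, 565 kept their direction and their side, 52 lost and 6 gained a call, and 9 changed sign. With the offset, alone and with the replicate block, these were *Gabpa* (-0.0426 in both), *Id2* (-0.0549 and -0.0541) and *Pomt1* (0.0327 and 0.032). Without 1 library they were *Colq* (from -0.0509 to 0.192) and *Cd68* (from -0.267 to 0.0041). With the replicate block *Etv5* lost its call (adjusted p = 0.0636), and with the offset and the block 3 MuSK signalling genes were higher and 3 lower. The cause was not tested. Counts of 23 to 84 reads limit what can be said of *Chrne*.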
